A study of Homo sapiens with 12 samples.

Results

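The zinc finger genes of human chromosome 19 were followed in PANC-1 cells, an established line from a human pancreatic carcinoma, after 24 h with chaetocin, MLN8237 or both. Members were all entries of the gene table on chromosome 19 whose name is ZNF followed by a number and at most 1 letter. The rule found 266 entries among 57773 genes, and 2910 of those genes lie on chromosome 19. The 12 libraries form 4 groups of 3: 30 nM chaetocin with 90 nM MLN8237 (the combination), 30 nM chaetocin alone, 90 nM MLN8237 alone, and vehicle (DMSO). Chaetocin, a metabolite made by fungi, is known to block SUV39H1, which methylates lysine 9 of histone H3, and also thioredoxin reductase. MLN8237 (alisertib) inhibits the mitotic kinase Aurora A. The labels of the combination libraries carry a code that differs from MLN8237 by 1 digit and was read as MLN8237. All groups are the same cell line, with no genetic change named in the labels, and no knockdown of SUV39H1 or Aurora A enters the comparisons.

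Zinc finger proteins of the C2H2 type bind DNA through arrays of short fingers, each of which reads a few bases. Most ZNF genes of chromosome 19 also encode a KRAB domain, which recruits the corepressor TRIM28, and TRIM28 brings the H3K9 methyltransferase SETDB1, HP1 proteins and histone deacetylases to the bound DNA. Many KRAB zinc finger proteins bind transposable elements. The genes arose by tandem duplication and lie in clusters along the chromosome, and the clusters are themselves known as a site of H3K9 trimethylation and HP1 in human cells.

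Of the 266 members, 248 are protein-coding in the annotation used, 13 are pseudogenes, 1 is a long non-coding RNA and 4 had no match by identifier. The filter on low counts passed 243 members, 19 others had a count in some library and 4 had none anywhere. Gene bodies of 190 members overlapped another gene, and 5 symbols stood for 2 overlapping or neighbouring identifiers each. Reads in such overlaps may count for both genes: the overlapping entries of ZNF788 had 22.1 and 23.8 CPM with the combination, so its 2 calls are not independent. Reads from near-identical copies could also be split between members, and the sources used here do not give how such reads were counted. In a bulk sample, fewer cells of a kind and less RNA per cell cannot be told apart.

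Summed gene counts lay between 49439795 and 63747510 per library. Pairs of libraries within a group differed beyond counting noise, with a chi-square per gene of 5.46 to 118, and the widest pair was replicates 1 and 3 of MLN8237. Within chaetocin and MLN8237, pairs that held replicate 3 were at 23.2 to 118 and the pairs of replicates 1 and 2 at 8.42 and 5.46, while the 3 combination pairs were at 25.6 to 40.1. Treated libraries numbered 3 also deviated from their group means together (correlations across genes of 0.436 to 0.462). For chaetocin and the combination against vehicle, and for the combination against MLN8237, counts are therefore given with and without those 3. Of the line's epithelial markers, KRT8, KRT18 and KRT19 were abundant in every group, at 178 to 1054 CPM with the combination and 418 to 2286 CPM with vehicle (CPM, counts scaled to library size with TMM factors), and KRT7 was low, at 4.85 CPM with the combination and 4.13 CPM with vehicle. Of the markers of other cells, PTPRC, CD3E, CPA1 and PRSS1 had no count with vehicle, ALB had 1 and CHGA had 6. PTPRC reached 122 counts with the combination and 68 with chaetocin, and CD3E, CPA1 and PRSS1 reached at most 4 in any group. Their part in the results was not tested.

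Members were mostly transcribed at low levels. As RPKM (CPM per kilobase of gene, computed from the counts), the median of the 243 tested members was 2.17 with the combination, 2.004 with chaetocin, 1.69 with MLN8237 and 1.76 with vehicle, where the median of all tested genes was 2.77. The member with the highest vehicle level was ZNF146, which encodes a protein of zinc fingers with no KRAB domain, at 56.0 RPKM. ZNF780A followed at 27.6 RPKM and ZNF787 at 24.7 RPKM. Summed over all members, the level was 3722 to 4082 CPM in the combination libraries, 3546 to 3761 CPM in the chaetocin libraries, 3279 to 3396 CPM in the MLN8237 libraries and 3350 to 3534 CPM in the vehicle libraries. The combination libraries all lay above the vehicle libraries and the chaetocin libraries did so too, while MLN8237 and vehicle overlapped.

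Along the chromosome, a gap of over 1 Mb between starts divided the members into 17 clusters (9 with a gap of 2 Mb). The 7 clusters of 16 or more members held 243 of the 266. Coordinates are hg19, as in the deposited table. The clusters lay at 7.1 to 9.9 Mb (16 members), 11.6 to 12.8 Mb (30), 19.8 to 24.3 Mb (41), 36.7 to 38.3 Mb (26), 44 to 45.6 Mb (26), 52.1 to 54.1 Mb (43) and 56 to 59 Mb (61). Their members with the highest vehicle level were ZNF358 (11.3 RPKM), ZNF700 (5.38 RPKM), ZNF90 (3.93 RPKM), ZNF146, ZNF428 (11.9 RPKM), ZNF761 (8.01 RPKM) and ZNF787.

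The longest stretch with no tested member lay inside the cluster at 19.8 to 24.3 Mb. There, 12 neighbouring members from ZNF208 to ZNF730 (chr19:22115760-23330021, between ZNF43 and ZNF724P) were not tested because their counts were too low. Together they had 14 counts in the 3 combination libraries, 15 in the chaetocin libraries, 4 in the MLN8237 libraries and 10 in the vehicle libraries. No member of the stretch passed 4 counts in any library, and ZNF209P, ZNF99 and ZNF728 had none. Whether reads were lost between near-identical copies was not tested. Across all members, 16 had no count with vehicle. With under 10 counts in every vehicle library, 4 members passed the filter, ZNF556, ZNF812, ZNF415 and ZNF542, and 3 of those 4 were called higher with the combination. ZNF556, ZNF415 and ZNF542 passed through their treated libraries, so that their calls carry no weight as a count of members. An untested member, ZNF610, had 24 counts with the combination, 8 with chaetocin, and none with MLN8237 or vehicle.

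The combination of chaetocin and MLN8237 raised more members than it lowered. Of 243 tested members, 82 were higher and 18 lower than with vehicle (33.7% and 7.41%), against 20.1% higher and 18.3% lower of all 22831 tested genes (edgeR quasi-likelihood test, adjusted p under 0.05 by Benjamini-Hochberg over all genes). The 82, and the counts by position and by protein below, include ZNF556, ZNF415 and ZNF542, whose calls carry no weight as counts. The median log2 fold change was 0.16 over the members and 0.02 over all tested genes, and 166 members had a positive value. ZNF genes of other chromosomes, by the same name rule, had 66 higher and 35 lower of 250 with a median of 0.12. Other genes of chromosome 19 had 266 higher and 270 lower of 1452. All 3 combination libraries lay above all 3 vehicle libraries for 108 members (44.4%, against 27.5% of all genes), and below them for 40 (16.5%, against 27.4%). Without the 3 treated libraries numbered 3, the counts were 100 higher and 18 lower. The count of lower members was 8 without combination replicate 3, and 11 without combination replicate 1, vehicle replicate 1 or vehicle replicate 3.

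**Figure D1:**
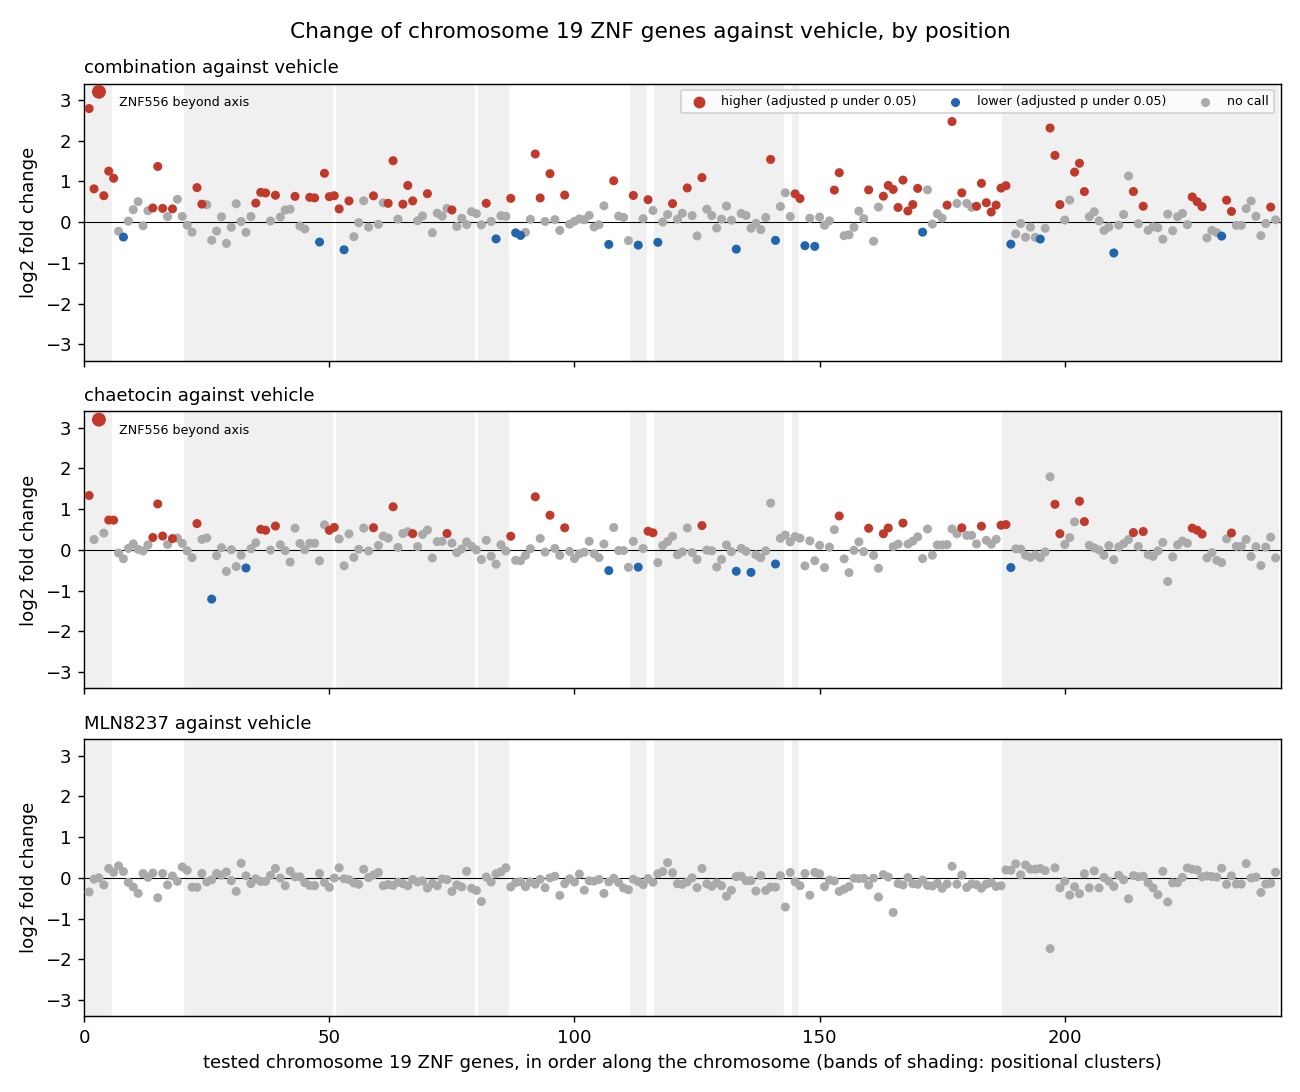
Log2 fold change of each of the 243 tested members in order along chromosome 19, for the combination, chaetocin and MLN8237 against vehicle. Red points are members called higher and blue points members called lower at an adjusted p under 0.05, shading marks the clusters, and ZNF556 is drawn at the edge because vehicle had no counts of it. The upper panel has 82 red and 18 blue points, the middle panel 44 and 8, and the lower panel none.

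At the short-arm end, ZNF554, ZNF555, ZNF57 and ZNF77 of the first cluster (chr19:2819872-2944969) were higher with the combination. The cluster also holds ZNF556, which passed the filter only through libraries with chaetocin and is given by its counts. Each of the 5 encodes a KRAB pattern and 7 to 15 fingers. ZNF554, the first member on the chromosome, had 11.2, 5.63 and 12.4 CPM in the combination libraries, 3.56, 3.93 and 3.204 CPM in the chaetocin libraries, 1.18, 0.744 and 1.40 CPM in the MLN8237 libraries, and 1.68, 1.26 and 1.31 CPM in the vehicle libraries. Combination replicate 2 was the lowest of its group but lay above every library of the other groups, and chaetocin lay above MLN8237 and vehicle. The log2 fold change was 2.79 ± 0.292 (SE) for the combination (adjusted p 2.05e-05) and 1.34 ± 0.288 for chaetocin (adjusted p 0.00478), each against vehicle. Both calls held under every alternative tried.

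ZNF556 had no count in any MLN8237 or vehicle library. Its counts were 62, 16 and 47 in the combination libraries and 18, 22 and 9 in the chaetocin libraries. Every treated library with chaetocin in it thus had counts, and the 6 libraries without chaetocin had none. Taking 3 counts, summed over a group's libraries, as the limit that a count of 0 allows, ZNF556 was at least 36.6-fold higher with the combination and at least 14.3-fold higher with chaetocin than with vehicle, and at least 34.3-fold higher with the combination than with MLN8237. These bounds cover counting error only. ZNF77 had 7.72, 5.91 and 9.08 CPM with the combination, 4.51, 5.33 and 6.03 CPM with chaetocin, 2.89, 3.88 and 4.43 CPM with MLN8237, and 3.19, 3.19 and 3.17 CPM with vehicle. The combination and chaetocin libraries of ZNF77 lay above all vehicle libraries, with log2 fold changes of 1.25 ± 0.192 (adjusted p 0.000279) and 0.73 ± 0.192 (adjusted p 0.0139). The chaetocin call on ZNF77 was lost without chaetocin replicate 3, the only alternative that ended it (adjusted p 0.0615). ZNF555 rose by 0.82 ± 0.148 with the combination (adjusted p 0.000899), and ZNF57 by 0.65 ± 0.149 (adjusted p 0.00405). With chaetocin their values were 0.26 ± 0.149 (adjusted p 0.242) and 0.41 ± 0.149 (adjusted p 0.0597), without a call.

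**Figure D2:**
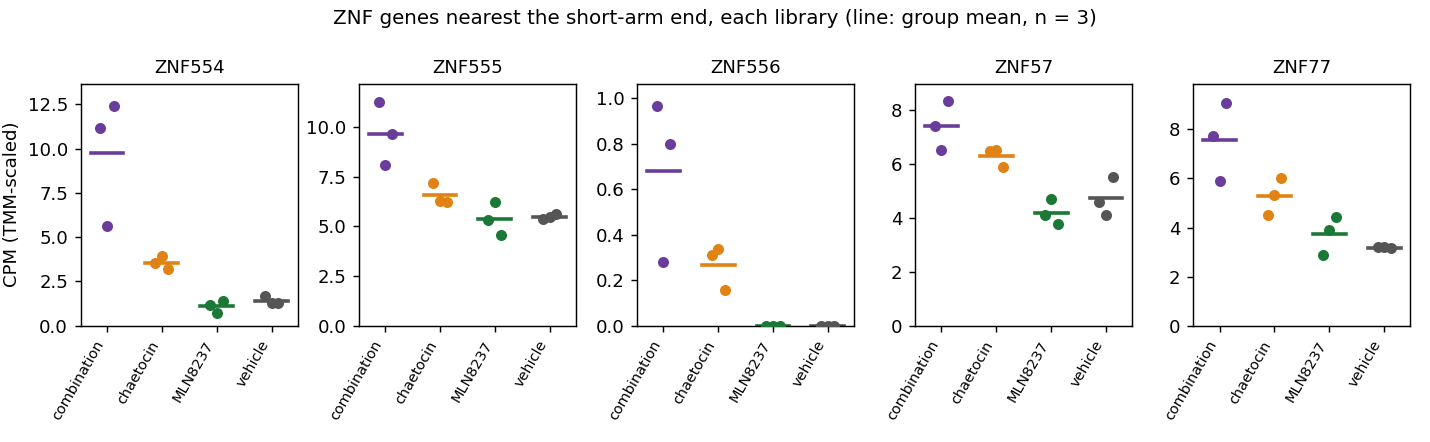
CPM (TMM-scaled) of the 5 members nearest the short-arm end, with a panel per gene, a point per library and a line at the mean of each group (n = 3). ZNF556 has points at 0 in all MLN8237 and vehicle libraries, and the combination libraries of ZNF554 lie between 5.63 and 12.4 CPM, above all others.

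The other large increases with the combination were spread over the chromosome. ZNF382 (chr19:37095719-37119499), a KRAB repressor known as a gene silenced by promoter methylation in several carcinomas, had 1.99, 1.21 and 2.16 CPM with the combination, 1.56, 1.28 and 1.32 CPM with chaetocin, 0.809, 0.434 and 0.241 CPM with MLN8237, and 0.503, 0.438 and 0.733 CPM with vehicle. Its 6 libraries with chaetocin all exceeded 1 CPM and its other 6 did not. The log2 fold changes against vehicle were 1.67 ± 0.361 for the combination (adjusted p 0.00277) and 1.30 ± 0.362 for chaetocin (adjusted p 0.0188). ZNF582 (chr19:56887413-56904914), known as a methylation marker of cervical neoplasia, had 4.92, 3.36 and 4.29 CPM with the combination, 3.39, 3.09 and 2.30 CPM with chaetocin, 1.76, 1.20 and 1.82 CPM with MLN8237, and 1.17, 1.48 and 1.38 CPM with vehicle. Again no library with chaetocin overlapped a library without it. ZNF582 rose by 1.64 ± 0.222 on the log2 scale with the combination (adjusted p 0.000118) and by 1.12 ± 0.222 with chaetocin (adjusted p 0.00287). ZNF382 overlaps ZNF529 and ZNF582 overlaps ZNF542.

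ZNF66 (chr19:20959110-20991922) had 3.58, 1.82 and 2.21 CPM with the combination, 1.94, 1.57 and 2.08 CPM with chaetocin, 0.901, 0.785 and 0.658 CPM with MLN8237, and 0.776, 1.003 and 0.894 CPM with vehicle. Its combination and chaetocin libraries overlapped each other and lay above the rest. The log2 fold changes against vehicle were 1.51 ± 0.259 (adjusted p 0.000627) for the combination and 1.06 ± 0.26 (adjusted p 0.0101) for chaetocin. The neighbours ZNF805 (chr19:57751973-57766503) and ZNF460 (chr19:57791419-57804937) averaged 8.23 ± 4.17 and 8.43 ± 3.11 CPM with the combination, against 3.52 ± 0.933 and 3.09 ± 0.624 CPM with vehicle (SD, n = 3 each). ZNF460 rose by 1.44 ± 0.284 (adjusted p 0.00152) under every alternative. The call on ZNF805 (1.23 ± 0.393, adjusted p 0.0252) was lost without combination replicate 1, vehicle replicate 1 or vehicle replicate 3 and without the filter, at adjusted p of 0.0808 to 0.157.

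The 10 largest increases at 1 CPM or more also held ZNF426, ZNF841 and ZNF490. ZNF426 (chr19:9638667-9649303) averaged 5.65 ± 1.46 CPM with the combination, 4.81 ± 1.24 CPM with chaetocin, 1.55 ± 0.85 CPM with MLN8237 and 2.19 ± 0.742 CPM with vehicle (SD, n = 3 each). Its increase of 1.37 ± 0.372 with the combination (adjusted p 0.0109) was lost without combination replicate 1, vehicle replicate 1 or the filter, at adjusted p of 0.0517 to 0.0533. ZNF841 rose by 1.21 ± 0.193 (adjusted p 0.00037) and ZNF490 by 1.20 ± 0.253 (adjusted p 0.00241). ZNF841 lies in the cluster at 52.1 to 54.1 Mb and ZNF490 in that at 11.6 to 12.8 Mb. ZNF850 (chr19:37205285-37263727), outside those 10, encodes an array of 30 fingers and had the smallest adjusted p of any member. It averaged 48.2 ± 6.77 CPM with the combination, 38.2 ± 1.61 CPM with chaetocin, 21.1 ± 1.97 CPM with MLN8237 and 21.2 ± 0.373 CPM with vehicle. The log2 fold changes of ZNF850 were 1.19 ± 0.108 (adjusted p 7.46e-06) for the combination and 0.85 ± 0.107 (adjusted p 0.000149) for chaetocin against vehicle.

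The decreases were smaller than the increases. Among the 18 lower members the largest decrease was that of ZNF772, which fell by 0.76 ± 0.209 on the log2 scale (adjusted p 0.0116). It had 4.50, 4.83 and 3.50 CPM with the combination, 7.41, 6.38 and 4.57 CPM with chaetocin, 7.15, 6.86 and 4.70 CPM with MLN8237, and 7.11, 8.25 and 6.35 CPM with vehicle. Its combination and vehicle libraries did not overlap, while replicate 3 was the lowest library in all 4 groups. The call on ZNF772 was lost without combination replicate 3 (adjusted p 0.051).

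ZNF226 (chr19:44669226-44682534) had 7.10, 7.66 and 6.89 CPM with the combination, 8.18, 8.14 and 7.55 CPM with chaetocin, 12.3, 10.4 and 12.3 CPM with MLN8237, and 11.6, 11.5 and 11.2 CPM with vehicle. All 6 libraries with chaetocin lay under 9 CPM and all 6 without it above 10 CPM. The decrease of ZNF226 was 0.66 ± 0.104 with the combination (log2 fold change -0.66, adjusted p 0.000331), and 0.52 ± 0.104 with chaetocin (log2 fold change -0.52, adjusted p 0.00293). ZNF579, which encodes zinc fingers without a KRAB pattern (chr19:56088899-56092211), had 18.1, 17.8 and 18.0 CPM with the combination, 17.2, 20.1 and 20.8 CPM with chaetocin, 29.7, 27.0 and 32.6 CPM with MLN8237, and 25.5, 25.9 and 27.1 CPM with vehicle. Its libraries divided by chaetocin in the same way. ZNF579 fell by 0.54 ± 0.0979 with the combination (adjusted p 0.000856) and by 0.43 ± 0.0977 with chaetocin (adjusted p 0.00623).

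ZNF14 fell by 0.68 ± 0.168 (adjusted p 0.00627), ZNF613 by 0.60 ± 0.148 (adjusted p 0.00635) and ZNF780B by 0.57 ± 0.105 (adjusted p 0.000996) with the combination, and these 3 calls held under every alternative. ZNF780B was the most abundant of the 10 named decreases, at 14.5 RPKM with the combination and 21.4 RPKM with vehicle. Its neighbour and paralog ZNF780A had 233 ± 32.9 CPM with the combination and 220 ± 13.9 CPM with vehicle, a log2 fold change of 0.08 ± 0.137 (adjusted p 0.665). The next neighbour, ZNF546, rose by 0.65 ± 0.102 (adjusted p 0.000315). The trio at 40.5 to 40.6 Mb thus held a member called in each direction and a member with no call.

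The other 4 named decreases were called in the main test and lost in part of the alternatives. ZNF793 (-0.55 ± 0.153, adjusted p 0.0122) was lost without combination replicate 3 (adjusted p 0.0548). ZNF577 (-0.58 ± 0.201, adjusted p 0.0358) was lost without combination replicate 1, vehicle replicate 2 or vehicle replicate 3 and under 3 other settings, at adjusted p of 0.0532 to 0.148. ZNF575 (-0.50 ± 0.175, adjusted p 0.0391) was lost when any 1 vehicle library or combination replicate 1 or 3 was left out and under 3 other settings, at 0.0531 to 0.166. ZNF564 (-0.49 ± 0.172, adjusted p 0.0385) was lost without combination replicate 1 or 2, vehicle replicate 1 or 3 or with the stricter filter, at 0.0654 to 0.164.

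Promoters are shown for the 4 members with the largest increase and the 4 with the largest decrease among the members called with the combination at a mean of 1 CPM or more and without overlap of libraries. Each runs from 250 bases before to 50 after the start of the gene in RefSeq (GRCh38.p14, not the hg19 of the counts), 5′ to 3′ on the strand of the gene. Capitals mark the letters of 7 motifs searched on both strands. ETS factors were searched as CCGGAAG and YY1 as AAGATGGC. ZNF143 was searched as ACTACAA and AP-1 as TGANTCA. NRF2 was searched as TGACNNNGC, the TATA box as TATAAA, and NRF1 by its palindrome of 10 bases. The YY1 and ETS letters can overlap, as they do in ZNF582. The increases, in that ranking, were these.
ZNF554 (chr19:2819618-2819917, + strand): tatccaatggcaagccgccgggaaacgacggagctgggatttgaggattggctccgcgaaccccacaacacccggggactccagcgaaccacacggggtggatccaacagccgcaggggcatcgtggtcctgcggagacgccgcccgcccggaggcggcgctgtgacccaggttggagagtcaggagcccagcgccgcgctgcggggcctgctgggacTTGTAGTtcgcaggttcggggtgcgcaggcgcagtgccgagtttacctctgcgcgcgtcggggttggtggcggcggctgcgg
ZNF382 (chr19:36605063-36605362, + strand): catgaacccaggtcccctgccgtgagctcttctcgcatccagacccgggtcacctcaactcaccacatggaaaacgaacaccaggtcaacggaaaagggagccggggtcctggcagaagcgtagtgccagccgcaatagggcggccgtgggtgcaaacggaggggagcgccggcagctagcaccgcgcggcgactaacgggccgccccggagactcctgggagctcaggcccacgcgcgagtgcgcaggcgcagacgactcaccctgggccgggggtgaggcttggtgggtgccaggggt
ZNF582 (chr19:56393485-56393784, - strand): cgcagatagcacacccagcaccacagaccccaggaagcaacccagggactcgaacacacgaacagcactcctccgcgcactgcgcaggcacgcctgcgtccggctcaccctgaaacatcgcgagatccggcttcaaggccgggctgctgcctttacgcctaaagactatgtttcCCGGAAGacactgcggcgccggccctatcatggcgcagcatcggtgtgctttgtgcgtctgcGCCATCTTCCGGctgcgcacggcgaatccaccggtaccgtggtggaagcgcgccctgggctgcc
ZNF66 (chr19:20776054-20776353, + strand): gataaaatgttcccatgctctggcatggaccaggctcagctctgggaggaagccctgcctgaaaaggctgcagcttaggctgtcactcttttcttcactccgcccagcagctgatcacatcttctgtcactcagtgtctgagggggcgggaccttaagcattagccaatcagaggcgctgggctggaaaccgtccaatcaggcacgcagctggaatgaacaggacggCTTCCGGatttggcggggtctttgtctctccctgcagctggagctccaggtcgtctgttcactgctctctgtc

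ZNF554 and ZNF582 are rich in CpG, with 34 and 30 CpG in 300 bases, and ZNF66 has 9. ZNF582 holds 2 ETS matches and ZNF66 holds 1, while the ZNF554 promoter holds a ZNF143 match and the ZNF382 promoter none of the 7. The decreases were these.
ZNF772 (chr19:57477517-57477816, - strand): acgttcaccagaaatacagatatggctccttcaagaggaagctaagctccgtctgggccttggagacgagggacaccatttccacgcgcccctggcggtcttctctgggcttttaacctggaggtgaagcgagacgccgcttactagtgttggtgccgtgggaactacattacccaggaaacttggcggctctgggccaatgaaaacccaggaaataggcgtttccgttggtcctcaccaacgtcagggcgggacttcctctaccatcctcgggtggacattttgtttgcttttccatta
ZNF14 (chr19:19733063-19733362, - strand): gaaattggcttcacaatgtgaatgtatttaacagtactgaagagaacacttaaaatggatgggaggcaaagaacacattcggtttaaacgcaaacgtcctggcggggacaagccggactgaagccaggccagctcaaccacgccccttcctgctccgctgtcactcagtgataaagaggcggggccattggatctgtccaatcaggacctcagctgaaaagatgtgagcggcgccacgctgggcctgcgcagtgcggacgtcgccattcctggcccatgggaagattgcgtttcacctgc
ZNF226 (chr19:44164850-44165149, + strand): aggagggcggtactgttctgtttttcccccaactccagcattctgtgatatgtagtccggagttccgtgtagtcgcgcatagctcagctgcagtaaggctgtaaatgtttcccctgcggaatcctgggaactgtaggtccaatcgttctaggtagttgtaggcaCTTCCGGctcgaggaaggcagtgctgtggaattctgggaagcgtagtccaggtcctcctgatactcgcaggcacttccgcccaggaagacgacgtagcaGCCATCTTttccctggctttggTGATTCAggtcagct
ZNF613 (chr19:51927222-51927521, + strand): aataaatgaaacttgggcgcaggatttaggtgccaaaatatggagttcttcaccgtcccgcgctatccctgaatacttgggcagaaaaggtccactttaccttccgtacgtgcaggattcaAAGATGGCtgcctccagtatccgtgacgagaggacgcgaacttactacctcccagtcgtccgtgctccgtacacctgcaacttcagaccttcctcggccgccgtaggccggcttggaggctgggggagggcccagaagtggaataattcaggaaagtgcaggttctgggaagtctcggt

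ZNF226 holds an ETS, a YY1 and an AP-1 match, ZNF613 a YY1 match, and ZNF772 and ZNF14 no match. Of 261 member symbols, 214 had a promoter in the RefSeq table. The ETS letters were in 97 of those 214 (45.3%), in 34.8% of 210 promoters of ZNF genes on other chromosomes and in 10.3% of all 35116 promoters. They were in 34 of 68 promoters of members higher with the combination, in 6 of 18 of those lower, and in 51 of 117 of those without a call. The TATA letters were in 1.87% of member promoters and 11.5% of all promoters, AP-1 in 6.54% and 7.71%, NRF2 in 14.5% and 13.3%, YY1 in 6.54% and 2.89%, ZNF143 in 5.14% and 2.77%, and NRF1 in 2.34% and 1.24%. In promoters of ZNF genes on other chromosomes, TATA and AP-1 letters were each in 4.29% and NRF2 in 13.8%. There YY1 was in 2.86%, ZNF143 in 6.19% and NRF1 in 2.86%. Member promoters had a median of 20 CpG, those of ZNF genes on other chromosomes 24 and all promoters 14. A match describes the letters and says nothing of binding.

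By position, calls with the combination were uneven. Of all tested genes, 20.1% were higher and 18.3% lower. The cluster at 52.1 to 54.1 Mb had 21 higher (50%) and 3 lower of 42 tested, with a median log2 fold change of 0.38. At 11.6 to 12.8 Mb the counts were 11 higher (36.7%) and 1 lower of 30, and at 19.8 to 24.3 Mb they were 10 (35.7%) and 1 of 28. Fewer were called at 44 to 45.6 Mb, with 4 higher (15.4%) and 3 lower of 26. The largest cluster, at 56 to 59 Mb, had 15 higher (26.8%) and 4 lower of 56 and a median of 0.04. The remaining large clusters had 5 higher (33.3%) and 1 lower of 15 at 7.1 to 9.9 Mb, and 6 (24%) and 3 of 25 at 36.7 to 38.3 Mb. The 21 tested members outside the large clusters had 10 higher and 2 lower (47.6% and 9.52%). Differences between clusters were not tested.

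**Figure D3:**
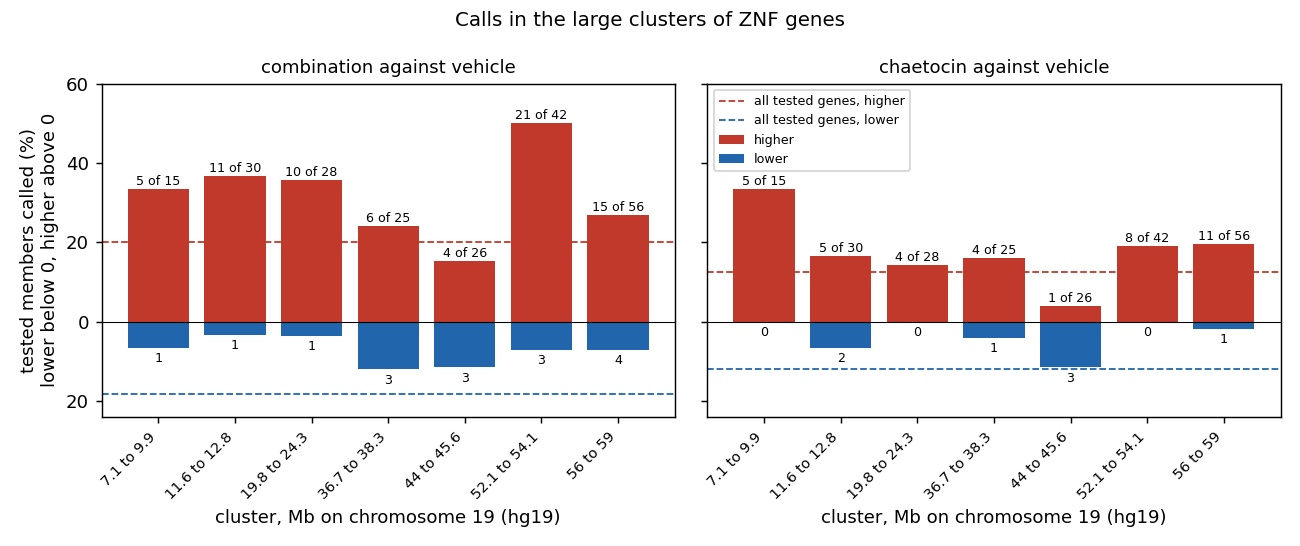
Percent of tested members called higher (red, upward) and lower (blue, downward) in each of the 7 large clusters, for the combination and for chaetocin against vehicle, with the numbers called. Dashed lines give the percent of all tested genes called in the same direction, and the cluster at 52.1 to 54.1 Mb reaches 50% (21 of 42) with the combination.

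Neighbouring members called in 1 direction formed runs. The longest with the combination against vehicle held 8 genes in 330.0 kb (chr19:53030905-53360902): ZNF808, ZNF701, ZNF137P, ZNF83, ZNF611, ZNF600, ZNF28 and ZNF468. ZNF808 is known as a gene needed for human pancreas development. It had 15.3, 11.2 and 14.6 CPM with the combination, 10.8, 11.6 and 12.4 CPM with chaetocin, 8.75, 8.96 and 10.2 CPM with MLN8237, and 8.05, 9.08 and 9.30 CPM with vehicle. Its combination and chaetocin libraries lay above all vehicle libraries, with log2 fold changes of 0.64 ± 0.131 (adjusted p 0.002) and 0.40 ± 0.131 (adjusted p 0.0415).

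The largest increase in the run was that of ZNF611, at 25.9, 17.4 and 21.5 CPM with the combination, 17.8, 17.2 and 15.2 CPM with chaetocin, 11.1, 10.02 and 6.98 CPM with MLN8237, and 9.71, 10.6 and 11.4 CPM with vehicle. No library with chaetocin overlapped one without it. ZNF611 rose by 1.03 ± 0.172 with the combination (adjusted p 0.000506) and by 0.66 ± 0.172 with chaetocin (adjusted p 0.0136). The smallest increase was that of ZNF600, 0.27 ± 0.097 (adjusted p 0.041). In the chaetocin comparison, ZNF808, ZNF701 and ZNF611 of the 8 were called higher and the other 5 had values of 0.08 to 0.32. At its bounds the run met ZNF578, at 0.324 ± 0.129 CPM with the combination and 0.250 ± 0.0623 CPM with vehicle, with no call, and ZNF320, which fell by 0.25 ± 0.0883 (adjusted p 0.041). In the run, 3 pairs overlap in position (ZNF808 with ZNF701, ZNF137P with ZNF83, ZNF28 with ZNF468), and reads may count for both members of a pair.

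**Figure D4:**
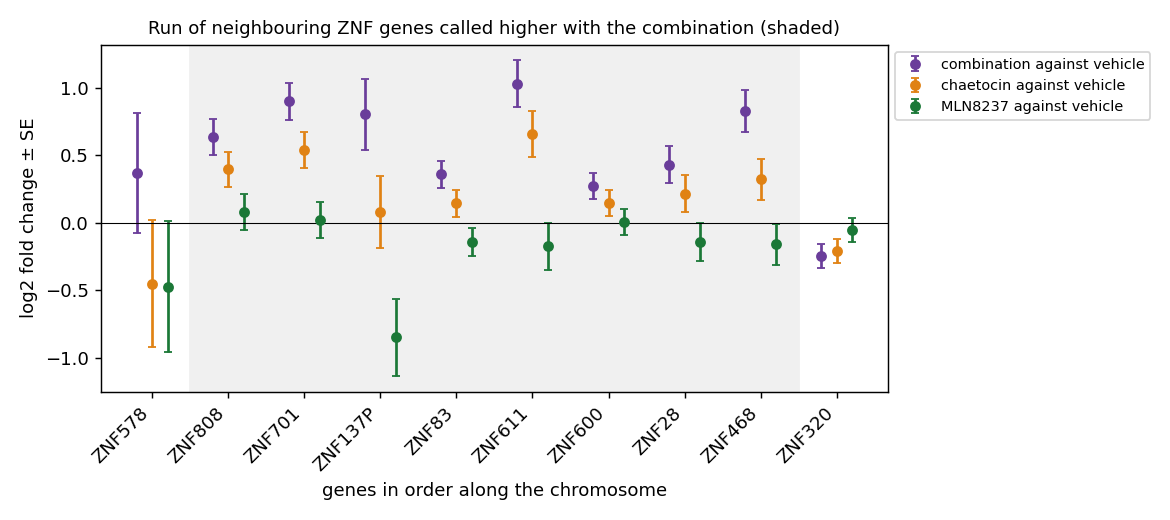
Log2 fold change ± SE for the 8 neighbouring members of the run (shaded) and the members beside it, in order along the chromosome, for the combination, chaetocin and MLN8237 against vehicle. The combination lies between 0.27 and 1.03 in the run and at -0.25 for ZNF320 beside it.

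A second run of 7 higher members reached from ZNF845 to ZNF628 across the gap between the last 2 clusters. It included ZNF331, an imprinted gene (chr19:54024235-54083523), which averaged 62.7 ± 9.64 CPM with the combination, 53.6 ± 1.93 CPM with chaetocin, 30.7 ± 3.43 CPM with MLN8237 and 35.2 ± 0.714 CPM with vehicle. ZNF331 rose by 0.83 ± 0.115 with the combination (adjusted p 0.000134) and by 0.61 ± 0.114 with chaetocin (adjusted p 0.00211). Across all clusters, likeness between neighbours was weak. The rank correlation of log2 fold changes between adjacent tested members of a cluster was 0.16 over 228 pairs for the combination, 0.13 over the 190 pairs without overlap, and 0.03 at 10 steps apart. Neighbours share sequence and can share reads. At the long-arm end the last member, ZNF446, had 21.3 ± 1.74 CPM with the combination and 20.5 ± 0.809 CPM with vehicle (log2 fold change 0.06 ± 0.0902, adjusted p 0.667).

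Chaetocin alone raised 44 members and lowered 8 of 243 (18.1% and 3.29%), where 12.6% of all tested genes were higher and 11.9% lower. The 44 include ZNF556, which passed the filter only through libraries with chaetocin. The median log2 fold change was 0.12 over the members and 0.01 over all genes. ZNF genes of other chromosomes had 40 higher and 21 lower of 250. Chaetocin libraries lay above all vehicle libraries for 88 members (36.2%, against 24.2% of all genes) and below them for 34 (14.0%, against 23.9%). The count of higher members was 25 without vehicle replicate 1, 27 without chaetocin replicate 2, 28 without chaetocin replicate 3, and 67 without the 3 treated libraries numbered 3. The count of lower members was 3 without vehicle replicate 3, 4 without vehicle replicate 2 or chaetocin replicate 3, and 13 without MLN8237 replicate 3 or without all 3 treated libraries numbered 3. The vehicle libraries also serve the combination, so the 2 sets of calls share their controls.

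The largest increases with chaetocin at 1 CPM or more were those of ZNF554, ZNF460, ZNF426, ZNF582, ZNF66, ZNF850, ZNF841, ZNF77, ZNF557 and ZNF543. ZNF460 had 8.18, 7.60 and 5.53 CPM with chaetocin and 2.52, 3.01 and 3.76 CPM with vehicle, without overlap. It rose by 1.20 ± 0.284 (adjusted p 0.00832). ZNF557, the first member of the cluster at 7.1 to 9.9 Mb, rose by 0.73 ± 0.164 (adjusted p 0.00609), and ZNF543 by 0.70 ± 0.121 (adjusted p 0.00128). The call on ZNF426 (1.13 ± 0.372, adjusted p 0.0415) was lost when any 1 chaetocin library was left out, and without combination replicate 2, vehicle replicate 1 or vehicle replicate 3 and without the filter, at adjusted p of 0.0531 to 0.145. Runs were shorter than with the combination: ZNF266, ZNF426 and ZNF121 (chr19:9523272-9695209), and ZNF814, ZNF587 and ZNF417 (chr19:58360099-58427978), of which ZNF814 and ZNF587 overlap.

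Of 7 decreases with chaetocin at 1 CPM or more, those of ZNF226 and ZNF579 held under every alternative. ZNF780B had 146, 139 and 157 CPM with chaetocin and 176, 190 and 227 CPM with vehicle, a log2 fold change of -0.42 ± 0.105 (adjusted p 0.0104). Its libraries did not overlap, but the call was lost without chaetocin replicate 2, without vehicle replicate 3 and with offsets for gene length, at adjusted p of 0.052 to 0.0617. ZNF793 (-0.51 ± 0.152, adjusted p 0.0277) was lost without chaetocin replicate 3 or vehicle replicate 2 or 3, at 0.0722 to 0.114. ZNF180 (-0.35 ± 0.102, adjusted p 0.0256) was lost without chaetocin replicate 2 or 3, vehicle replicate 2 or 3 or the filter, at 0.0751 to 0.127. ZNF433 (-0.44 ± 0.148, adjusted p 0.0443) and ZNF233 (-0.55 ± 0.187, adjusted p 0.0469) were lost under 11 and 12 alternatives, at 0.0512 to 0.165 and 0.054 to 0.171. The libraries whose omission ended them were all the vehicle ones, chaetocin replicates 1 and 3, combination replicates 1 and 3 and MLN8237 replicate 2, and for ZNF233 also chaetocin replicate 2. The remaining lower member, ZNF491, had 0.543 ± 0.0568 CPM with chaetocin and 1.25 ± 0.235 CPM with vehicle (-1.21 ± 0.244, adjusted p 0.00332).

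With MLN8237 alone, 0 members were higher and 0 lower by edgeR at an adjusted p under 0.05, and the other tool, DESeq2, also called 0 in each direction. Of all tested genes, 0.00438% were called higher and 0% lower. At an unadjusted p under 0.05, 1 member was higher (0.412%, against 5.37% of all genes) and 7 were lower (2.88%, against 3.12%). The members with the smallest p were ZNF358, ZNF329 and ZNF101 on the higher side and ZNF91, ZNF234 and ZNF225 on the lower side, all at an adjusted p of 0.516. ZNF91, a repressor of SVA retrotransposons, had 10.3, 8.68 and 8.49 CPM with MLN8237 and 11.2, 11.7 and 11.8 CPM with vehicle. Its groups did not overlap, and its log2 fold change was -0.34 ± 0.101. MLN8237 libraries lay above all vehicle libraries for 8 members (3.29%, against 6.96% of all genes) and below them for 28 (11.5%, against 7.06%). The median log2 fold change of the members was -0.09, and -0.02 without MLN8237 replicate 3. The standard error of a single member had a median of 0.146 on the log2 scale.

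The combination was also set against MLN8237, which asks what chaetocin did in cells that had MLN8237 in both groups. Of 243 members, 99 were higher and 22 lower (40.7% and 9.05%), where 23.3% of all tested genes were higher and 22.7% lower. The 99 include ZNF556, ZNF415 and ZNF542, which passed the filter through their treated libraries. The median log2 fold change was 0.27 over the members and 0.03 over all genes. ZNF genes of other chromosomes had 99 higher and 34 lower of 250, with a median of 0.20. Combination libraries lay above all MLN8237 libraries for 109 members (44.9%, against 26.8% of all genes) and below them for 28 (11.5%, against 24.5%). Without the 3 treated libraries numbered 3, the counts were 98 and 21. The lower count was 14 without combination replicate 1 and 13 when the 2 groups alone were fitted.

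ZNF554 again had the largest increase of the members at 1 CPM or more, 3.14 ± 0.3 (adjusted p 1.09e-05), followed by ZNF426 (1.86 ± 0.383, adjusted p 0.00185), ZNF460 (1.83 ± 0.291, adjusted p 0.000322) and ZNF382 (1.83 ± 0.366, adjusted p 0.00154). The next were ZNF66, ZNF549, ZNF841, ZNF805, ZNF582 and ZNF490, at 1.31 to 1.69. Of these, ZNF549 was lost without combination replicate 1 (adjusted p 0.0521), and ZNF805 without combination replicate 1 or the filter, at 0.0659 to 0.0663. The decreases at 1 CPM or more were led by ZNF579, which had 18.1, 17.8 and 18.0 CPM with the combination and 29.7, 27.0 and 32.6 CPM with MLN8237. It fell by 0.73 ± 0.098 (adjusted p 0.000108). ZNF613 fell by 0.73 ± 0.148 (adjusted p 0.00171), ZNF226 by 0.69 ± 0.104 (adjusted p 0.000227), ZNF14 by 0.66 ± 0.168 (adjusted p 0.00675) and ZNF787 by 0.65 ± 0.145 (adjusted p 0.00319).

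Against MLN8237, 5 decreases were lost in part of the alternatives. They were ZNF577, lost without combination replicate 1 (adjusted p 0.0662), and ZNF784, lost without the 3 treated libraries numbered 3 (0.0552). ZNF69 (adjusted p 0.0227) was lost without MLN8237 replicate 3, combination replicate 2 or the 3 libraries, or in a fit of the 2 groups, at 0.0769 to 0.118. ZNF524 (adjusted p 0.0168) was lost without combination replicate 1 or 2 or in a fit of the 2 groups, at 0.0503 to 0.0743. ZNF564 (adjusted p 0.013) was lost without combination replicate 1 or in such a fit, at 0.0618 to 0.0665. The 13 neighbouring tested members from ZNF160 to ZNF628 were higher against MLN8237, as was the run of 8 from ZNF808 to ZNF468. The stretch of 13 crosses the gap between the last 2 clusters and holds ZNF415, which passed the filter through its treated libraries.

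Set against chaetocin alone, the combination had 0 members higher and 0 lower by edgeR at an adjusted p under 0.05, where 0% of all tested genes were called in either direction. DESeq2 called 3 higher and 0 lower. At an unadjusted p under 0.05, 30 members were higher (12.3%, against 6.93% of all genes) and 2 lower (0.823%, against 4.80%). The median log2 fold change of the members was 0.08 with 159 of 243 positive. The combination libraries lay above all chaetocin libraries for 37 members (15.2%, against 9.54% of all genes) and below them for 8 (3.29%, against 9.15%). ZNF554 had the smallest p, with 11.2, 5.63 and 12.4 CPM in the combination libraries and 3.56, 3.93 and 3.204 CPM in the chaetocin libraries. The libraries did not overlap, and the log2 fold change was 1.45 ± 0.271 (adjusted p 0.182). ZNF554 was called by DESeq2 (adjusted p 0.000381), without the filter (0.00535) and without combination replicate 2 (0.0104).

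ZNF546 (0.44 ± 0.102, adjusted p 0.203) and ZNF555 (0.56 ± 0.147, adjusted p 0.212) were next, at 0.012 and 0.0275 by DESeq2 and at 0.048 and 0.0402 without combination replicate 2. ZNF546 had 127, 105 and 105 CPM with the combination and 89.0, 83.3 and 76.1 CPM with chaetocin. On the lower side the smallest p belonged to ZNF772 (-0.52 ± 0.208, adjusted p 0.365), ZNF613 (-0.33 ± 0.148, adjusted p 0.411) and ZNF726 (-0.26 ± 0.121, adjusted p 0.431). The interaction asks whether the log2 change with the combination differs from the chaetocin and MLN8237 changes added together, and it was called for 0 members by edgeR, where 0% of all genes were called. At an unadjusted p under 0.05 it was positive for 28 members (11.5%, against 5.86% of all genes) and negative for 7 (2.88%, against 7.75%). ZNF genes of other chromosomes had 24 positive and 8 negative of 250 tested. The smallest p were those of ZNF554 (1.80 ± 0.408), ZNF546 (0.48 ± 0.144) and ZNF91 (0.46 ± 0.141) among positive values, and ZNF358 (-0.44 ± 0.178), ZNF726 (-0.42 ± 0.171) and ZNF524 (-0.66 ± 0.272) among negative ones, each at an adjusted p of 0.362. DESeq2 called the interaction for ZNF554 (adjusted p 0.0359).

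Members were also divided by what their proteins hold. A pattern for the KRAB box was found in 200 of 247 members with a protein in the annotation (81.0%), in 37.5% of 256 ZNF genes of other chromosomes and in 1.71% of 19684 coding genes, and members had a median of 12 fingers and at most 39. Of 187 tested members with the KRAB pattern, 69 were higher and 9 lower with the combination (36.9% and 4.81%). Their median log2 fold change was 0.19. Of 41 with a protein and no KRAB pattern, 7 were higher and 9 lower (17.1% and 22.0%), with a median of -0.04. The shares of all tested genes were 20.1% and 18.3%, so the members without the pattern were near them. The pattern was a fixed match on the longest annotated protein, so a KRAB domain that departs from it counts as no pattern. The 15 tested members without a protein had 6 higher and 0 lower (40% and 0%). With chaetocin the KRAB members had 37 higher and 4 lower (19.8% and 2.14%). The others with a protein had 4 and 4 (9.76% each), against 12.6% and 11.9% of all tested genes. On other chromosomes, 22 of 85 ZNF genes with the pattern were higher with the combination and 5 lower (25.9% and 5.88%). Without it, 39 and 28 of 148 were (26.4% and 18.9%), so there the shares called higher were alike.

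Members with the KRAB pattern had lower levels than those without it, at a median of 1.58 and 3.598 RPKM with vehicle, and differed in length (medians of 4723 and 4005 bases). The part of level and length in the difference was not tested. Divided by level alone, the upper part of the members by mean RPKM had 47 higher and 10 lower of 122 with the combination (38.5% and 8.20%). The lower part had 35 and 8 of 121 (28.9% and 6.61%). Among the 69 tested members that overlap no other gene, 25 were higher and 8 lower (36.2% and 11.6%). Among the 174 that do, 57 and 10 were (32.8% and 5.75%). Of all tested genes, 20.1% were higher and 18.3% lower.

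**Figure D5:**
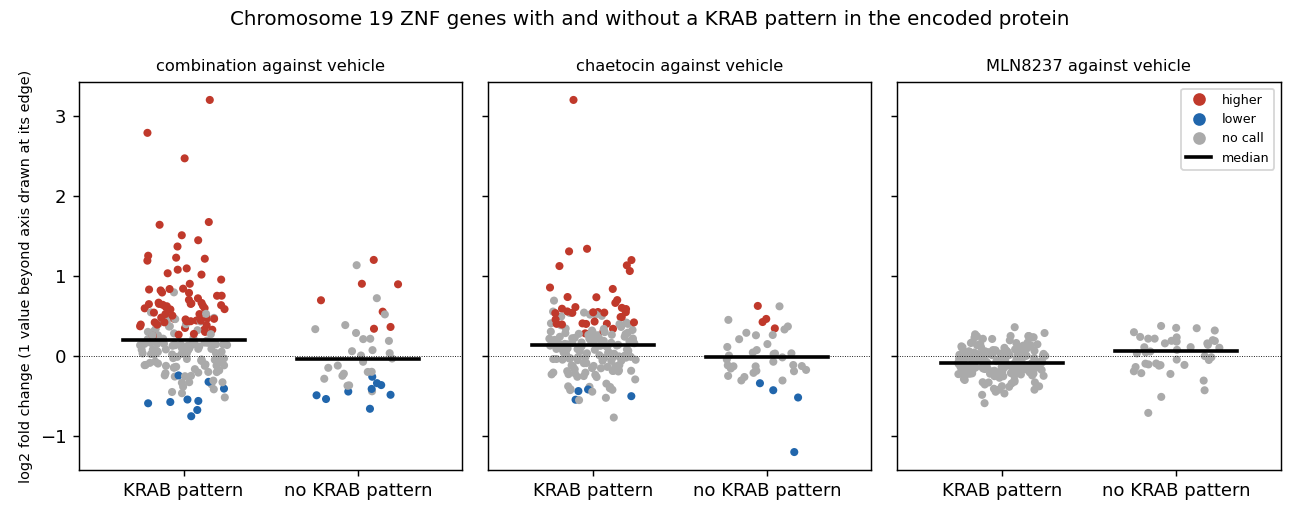
Log2 fold change against vehicle of tested members with a KRAB pattern (187) and of those with a protein but no KRAB pattern (41), for the combination, chaetocin and MLN8237. Points are genes, red called higher and blue called lower, and bars are medians, which for the combination lie at 0.19 and -0.04.

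Some members have a role known from other work and were picked here after their values were seen. ZNF274 recruits SETDB1 and TRIM28 to the ends of other ZNF genes. It had 25.5, 19.5 and 25.4 CPM with the combination, 18.9, 18.1 and 21.6 CPM with chaetocin, 15.2, 14.96 and 13.2 CPM with MLN8237, and 15.6, 16.6 and 16.3 CPM with vehicle. The combination libraries lay above all vehicle libraries, with a log2 fold change of 0.54 ± 0.117 (adjusted p 0.00294), and the value for chaetocin was 0.27 ± 0.117 (adjusted p 0.111). ZNF91, the SVA repressor, rose by 0.30 ± 0.0995 with the combination (adjusted p 0.0311). ZNF93, which represses LINE-1 elements, had 7.39 ± 0.545 CPM with the combination and 7.47 ± 0.228 CPM with vehicle (SD, n = 3 each), a log2 fold change of -0.02 ± 0.118 (adjusted p 0.935). ZNF417 and ZNF587, a pair of paralogs that bind HERV-K proviruses, rose by 0.38 ± 0.0983 (adjusted p 0.0082) and 0.50 ± 0.107 (adjusted p 0.0026) with the combination, and by 0.39 ± 0.0983 (adjusted p 0.0115) and 0.48 ± 0.107 (adjusted p 0.00557) with chaetocin. ZNF473, a U7 snRNP partner in histone mRNA processing, rose by 0.69 ± 0.136 with the combination (adjusted p 0.0015).

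Genes whose products work with KRAB proteins were followed as a list of 37, of which 36 were tested. With the combination 8 were higher and 4 lower, with chaetocin 5 and 2, with MLN8237 0 and 0, and against MLN8237 the combination had 10 higher and 7 lower. The shares called higher were near those of all tested genes, at 22.2% against 20.1% for the combination, 13.9% against 12.6% for chaetocin and 27.8% against 23.3% for the combination over MLN8237. The shares called lower were 11.1% against 18.3%, 5.56% against 11.9% and 19.4% against 22.7%. ATF7IP, a partner of SETDB1, averaged 43.7 ± 10.1 CPM with the combination, 31.5 ± 4.78 CPM with chaetocin, 16.2 ± 4.95 CPM with MLN8237 and 19.5 ± 1.08 CPM with vehicle (SD, n = 3 each). It rose by 1.17 ± 0.212 with the combination (adjusted p 0.000883). The H3K9 demethylase KDM4D rose by 1.55 ± 0.199 with the combination (adjusted p 8.24e-05) and by 0.86 ± 0.2 with chaetocin (adjusted p 0.00758). ATF7IP2 rose by 0.64 ± 0.0849 (adjusted p 0.000105) and SETDB1 by 0.31 ± 0.0923 (adjusted p 0.0181) with the combination. The SETDB1 call was lost without combination replicate 1, vehicle replicate 1, vehicle replicate 3 or the filter, at 0.0583 to 0.0994. TRIM33 (0.49 ± 0.144, adjusted p 0.0156), KDM4A (0.36 ± 0.0876, 0.00541), SUV39H2 (0.24 ± 0.0806, 0.0315) and PPHLN1 (0.22 ± 0.0736, 0.0291) were also higher with the combination. The calls on TRIM33, SUV39H2 and PPHLN1 were lost under 3, 8 and 8 alternatives, at 0.0511 to 0.235. UHRF1 rose by 0.34 ± 0.0764 with chaetocin (adjusted p 0.00568), and its value with the combination was -0.006 ± 0.0764, without a call.

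Several partners were lower. The deacetylase HDAC1 fell by 0.51 ± 0.0766 with the combination (adjusted p 0.000237), the NuRD subunit MTA1 by 0.50 ± 0.11 (adjusted p 0.00315) and the H3K9 methyltransferase EHMT2 by 0.49 ± 0.0994 (adjusted p 0.00183). SUV39H1, the enzyme that chaetocin is known to inhibit, averaged 37.3 ± 5.26 CPM with the combination and 46.9 ± 0.529 CPM with vehicle (-0.33 ± 0.101, adjusted p 0.0206), a call lost without combination replicate 1 (adjusted p 0.114) or combination replicate 3 (0.0612). TRIM28 itself averaged 856 ± 27.2 CPM with the combination, 890 ± 36.8 CPM with chaetocin, 771 ± 18.3 CPM with MLN8237 and 753 ± 18.99 CPM with vehicle (SD, n = 3 each). Its increase with chaetocin, 0.24 ± 0.077 (adjusted p 0.0362), was lost under 9 alternatives, among them the omission of any chaetocin or vehicle library or of MLN8237 replicate 1 or 2, at 0.051 to 0.201. With the combination its value was 0.18 ± 0.0769 (adjusted p 0.0752), without a call.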

How the data were processed

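RNA of 12 PANC-1 libraries (4 groups of 3) was measured by RNA-seq after on-column DNA digestion, per the labels' protocols. The authors deposited raw counts per gene, and CASAVA 1.9, TopHat 12.0.6, HTSeq and build hg19 are named without roles in the submitters' processing notes. The authors' deposited RPKM values, per kilobase of gene length, were not tested, and RPKM in the text was computed here from the counts and the deposited lengths. The strand setting, and the treatment of reads that map to several genes, are unknown here.

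Counts were fitted with edgeR 4.0.16 (R 4.3.3) by the robust quasi-likelihood F test, with TMM scaling, filterByExpr and 4 group means over all 12 libraries. The fit held 22831 genes, and p-values were adjusted by Benjamini-Hochberg over all of them (called at 0.05). The common biological coefficient of variation was 0.155. CPM are TMM-scaled, errors of log2 fold changes are SE and those of CPM are SD over 3 libraries. The interaction is a contrast of the same fit. Nothing in the labels ties a library to a culture of its own, and the p-values measure only the spread between libraries, which may be technical.

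Members and lists were chosen with earlier results of these data known. Named members are up to 10 each way with the largest fold change among those called, with a mean of 1 CPM over the groups compared and no overlap of libraries. For the combination against chaetocin and the interaction the rule allows 5 each way. Where none passed, the 3 of smallest p each way are named. The highest vehicle RPKM per cluster, the first and last member, the members beside the longest run, and the KRAB partners called against vehicle are also named. Other names were picked after their values were seen. Gene types and protein patterns came from a GRCh38 annotation matched by identifier, and promoters from RefSeq. Alternatives were RLE scaling, no filter, a stricter filter (1 CPM in 6 libraries), DESeq2 1.42.0, fits of the compared groups, a replicate block, offsets for gene length, leaving out each library, and leaving out the 3 treated libraries numbered 3. One listed marker of other cells is not reported here.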

Additional observations from a re-analysis of the deposited data

How the results depend on the processing

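The direction of the values of the named members and the called KRAB partners was the same in every alternative run. Of these recomputed values, 2043 kept their side of the threshold, 163 no longer passed it, 8 newly passed it and 0 changed sign. Counts of called members moved in some settings, and the cause was not tested. Without the 3 treated libraries numbered 3, chaetocin against vehicle had 67 higher and 13 lower, and without the filter it had 5 lower. The combination against vehicle had 10 lower with the stricter filter, and the combination against MLN8237 had 13 lower when only those groups were fitted. Against chaetocin, the combination had 3 higher by DESeq2 and 1 without the filter, and the interaction had 1 higher by DESeq2. Leaving out 1 library at a time gave 25 to 56 higher and 3 to 13 lower for chaetocin, 55 to 94 higher and 8 to 26 lower for the combination, 74 to 98 higher and 14 to 22 lower for the combination against MLN8237, and 0 to 4 higher for the combination against chaetocin. With RLE scaling the counts were 45 and 6 for chaetocin, 85 and 15 for the combination, and 100 and 20 for the combination against MLN8237.

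With the replicate block the counts were 52 higher and 10 lower for chaetocin, 94 and 22 for the combination, 107 and 25 for the combination against MLN8237, and 0 and 0 for MLN8237, the combination against chaetocin and the interaction. The labels do not say that a number marks a shared culture. Deviations of same-numbered libraries correlated at -0.0719 to 0.137 between chaetocin and vehicle, -0.153 to 0.0936 between the combination and vehicle, 0.0930 to 0.436 between the combination and MLN8237, -0.00699 to 0.462 between the combination and chaetocin, and 0.119 to 0.441 between chaetocin and MLN8237. The highest value among the treated groups came each time from the libraries numbered 3. No pair of groups compared directly had all its correlations over 0.1. Chaetocin and MLN8237, which both enter the interaction, did (0.119 to 0.441). The main fit took the libraries to share only a number, so structure shared by number among treated libraries was not modelled there. The interaction needs all 4 groups and has no fit of fewer. No difference was measured for the 23 members that were not tested, of which 4 had no count and 19 had at most 19 in a library.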
